A study of Mus musculus with 8 samples.

Results

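The 10 genes described here, Apoa1, Apoa4, Apob, Apoc3, Mttp, Fabp1, Fabp2, Cd36, Dgat1 and Dgat2, carry dietary fat through the absorptive cells of the gut and into chylomicrons. They were taken by gene symbol from the 32285 genes listed in each of 8 mouse intestinal libraries, and each symbol matched 1 gene. They were chosen by name, with earlier results of these data known, and no threshold on a measured value was applied. The libraries were 2 Visium sections of small intestine, 2 Visium sections of large intestine, 1 single-cell library of each of these tissues, and 1 single-cell library each of small intestinal organoids grown alone (control) and in coculture.

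All animals and cultures were labelled C57BL/6. Mice of that strain and Lgr5-eGFP-ires-CreERT2 mice of the same background were both used for sorting, and the labels do not say which cells came from which. The organoids were at passage 1, were pooled from 16 wells of each kind and sorted for 100000 epithelial cells, so each condition was 1 pooled library. The labels do not name the cells placed in coculture with the organoids. Live tissue cells were sorted with enrichment of LGR5+ stem cells and of CD31+ PDPN+ LYVE1+ lymphatic endothelial cells, so a cell type's share described the sort. The sections were 10 µm thick and were technical duplicates of each tissue. Age, diet, feeding state and the stretch of the small intestine were not given in the sources used here.

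Absorptive enterocytes of the villus take up fatty acids and monoglycerides from the gut lumen, rebuild them into triglyceride in the endoplasmic reticulum and load that triglyceride onto apolipoprotein B. The particle, coated with further apolipoproteins, leaves the cell at its base as a chylomicron and enters the lymphatic vessel at the core of the villus. Cd36 is a membrane receptor that takes up long-chain fatty acids in several cell types, Fabp1 and Fabp2 are fatty acid binding proteins of the cytosol, and Dgat1 and Dgat2 make triglyceride from diglyceride. Mttp transfers lipid onto Apob, the structural protein of the particle. Apoa1, Apoa4 and Apoc3 are apolipoproteins carried on its surface.

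Apoa1, Apoc3 and Apoa4 lie in a row on chromosome 9 of build GRCm38.p6, in the RefSeq annotation, at chr9:46228630-46230469, chr9:46233050-46235636 and chr9:46240844-46243458. The gaps between their spans were 2580 and 5207 bases. Fabp1 lies at chr6:71199879-71205034, and Fabp2 at chr3:122895072-122899506. Mttp shares chromosome 3 with Fabp2, at chr3:138089855-138143418. The other 4 genes were on separate chromosomes, with Apob at chr12:7977629-8016839, Cd36 at chr5:17781690-17888959, Dgat1 at chr15:76502012-76512021 and Dgat2 at chr7:99153663-99182713.

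The promoters of Apoa1, Apoa4, Fabp1 and Fabp2 are printed. The first pair lies in 1 gene cluster and rose in every bin along the villus, but differed in the size of the last step. The second pair, both binding proteins, differed in what remained in the large intestine. RefSeq sequence was at hand for 7 of the 10 genes. Each line gives the 250 bases before the annotated start on the gene's own strand, which is the plus strand for all 4 genes, at chr9:46228380-46228629 for Apoa1, chr9:46240594-46240843 for Apoa4, chr6:71199629-71199878 for Fabp1 and chr3:122894822-122895071 for Fabp2. Capitals mark matches to the searched motifs on either strand.
Apoa1: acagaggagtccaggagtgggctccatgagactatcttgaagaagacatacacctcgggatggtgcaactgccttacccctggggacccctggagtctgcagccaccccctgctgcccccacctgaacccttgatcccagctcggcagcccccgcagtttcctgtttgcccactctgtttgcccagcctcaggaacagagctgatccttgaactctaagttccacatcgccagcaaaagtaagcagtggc
Apoa4: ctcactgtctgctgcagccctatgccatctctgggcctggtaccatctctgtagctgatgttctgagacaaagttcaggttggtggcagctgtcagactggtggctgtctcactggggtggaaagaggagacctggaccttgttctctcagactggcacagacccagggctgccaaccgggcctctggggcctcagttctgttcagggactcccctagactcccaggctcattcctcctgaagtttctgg
Fabp1: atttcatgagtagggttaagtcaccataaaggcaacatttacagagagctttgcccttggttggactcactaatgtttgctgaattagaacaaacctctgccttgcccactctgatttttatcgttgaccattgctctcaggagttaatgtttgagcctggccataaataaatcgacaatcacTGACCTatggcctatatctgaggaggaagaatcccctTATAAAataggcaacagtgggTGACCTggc
Fabp2: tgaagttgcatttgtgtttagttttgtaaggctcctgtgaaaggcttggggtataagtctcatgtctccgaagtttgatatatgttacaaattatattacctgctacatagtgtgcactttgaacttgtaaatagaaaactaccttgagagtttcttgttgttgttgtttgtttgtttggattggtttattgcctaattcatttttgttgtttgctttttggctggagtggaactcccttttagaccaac

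Of the 7 promoters searched on both strands, TATAAA, the core of a TATA box, was found in those of Fabp1 and Apob. It was found in 12.4% of 32851 mouse promoters of that length. AGGTCA, the core half-site of many nuclear receptors, was found in those of Fabp1 and Cd36 and in 14.02% of all. In the Fabp1 promoter its reverse complement TGACCT stood at bases 67 to 62 and 9 to 4 before the start, on either side of a TATAAA at bases 30 to 25. CAAAGTCCA, a motif of the hepatocyte nuclear factor HNF4, was found in none of the 7 and in 0.384% of all promoters. The Cd36 window, chr5:17835897-17836146 on the minus strand, lay inside the Cd36 span given above. The Apob window, chr12:7977427-7977676, ended past the start of the Apob span given above. A match describes letters in the window searched and was not tested as a binding site.

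The libraries held from 24356162 to 142501907 counts of unique molecular identifiers (UMIs, each a captured RNA molecule). After filtering, 538 control organoid cells, 1028 cocultured organoid cells, 2695 small intestinal cells and 5882 large intestinal cells were kept. In the small intestinal cell library 5497 of 8842 barcodes had over 20% mitochondrial UMIs and were left out. The tissue libraries shared 25 cell barcodes and the organoid libraries 0. Levels are given as CPM, the UMIs of a gene scaled to 1000000 UMIs in all, and intervals are 95% intervals that cover counting error only. With 1 library per tissue or condition, and technical duplicates for the sections, no test between groups was possible, and a gene was called different at a ratio of 2-fold or more. Genes with at least 50 UMIs in the groups compared were tested. The Paneth markers, which should be scarce in the large intestine, were at 45199 and 26508 CPM in the small and at 1150 and 976 CPM in the large intestinal sections.

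In the sections, 9 of the 10 genes were higher in small than in large intestine by 2-fold or more with no overlap between the sections. Over all genes tested, 15.1% met the same rule. No member was lower, against 13.4% of all genes, and Cd36 met neither rule. The median log2 ratio of small over large intestine was 6.52 for the members and -0.01 for all genes. Because a section mixes many cells, fewer cells of a type and less RNA per cell cannot be told apart in these values.

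The surface apolipoproteins were near or at 0 in the large intestine. Apoa1 was at 3700.2 and 4499.6 CPM in the small intestinal sections, and 0 and 2 UMIs were counted in the large intestinal sections. Apoa4 was at 116 and 169 CPM against 0 UMIs in both large intestinal sections, so it was at least 2019-fold higher with a floor of 3 UMIs a section. Apoc3 was at 38.0 and 52.4 CPM against 0.145 and 0.183 CPM, a log2 ratio of 8.11. The sections of each tissue lay close together, and those of different tissues did not overlap for any of these genes.

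The genes of particle assembly and triglyceride synthesis were also higher in the small intestine but kept a measurable level in the large. Apob was at 397 and 556 CPM in small and at 11.5 and 11.5 CPM in large intestinal sections, a log2 ratio of 5.38. Mttp was at 392 and 452 CPM against 1.75 and 2.40 CPM, a log2 ratio of 7.67. Dgat1 was at 374 and 398 CPM against 35.1 and 33.2 CPM, a log2 ratio of 3.50. Dgat2, the other triglyceride synthase, had the narrowest gap of the 9 genes, at 53.3 and 71.7 CPM against 23.1 and 24.3 CPM, a log2 ratio of 1.40.

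The binding proteins differed in what remained in the large intestine. Fabp2 was at 3846 and 4523 CPM in the small intestine and still at 175 and 172 CPM in the large, a log2 ratio of 4.59. Fabp1 was at 48.3 and 45.2 CPM in the small intestine, and only 2 and 4 UMIs were counted in the large intestinal sections. Cd36 differed little between the tissues, with 12.8 and 12.1 CPM in small and 11.8 and 12.0 CPM in large intestinal sections, a log2 ratio of 0.07.

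**Figure D1:**
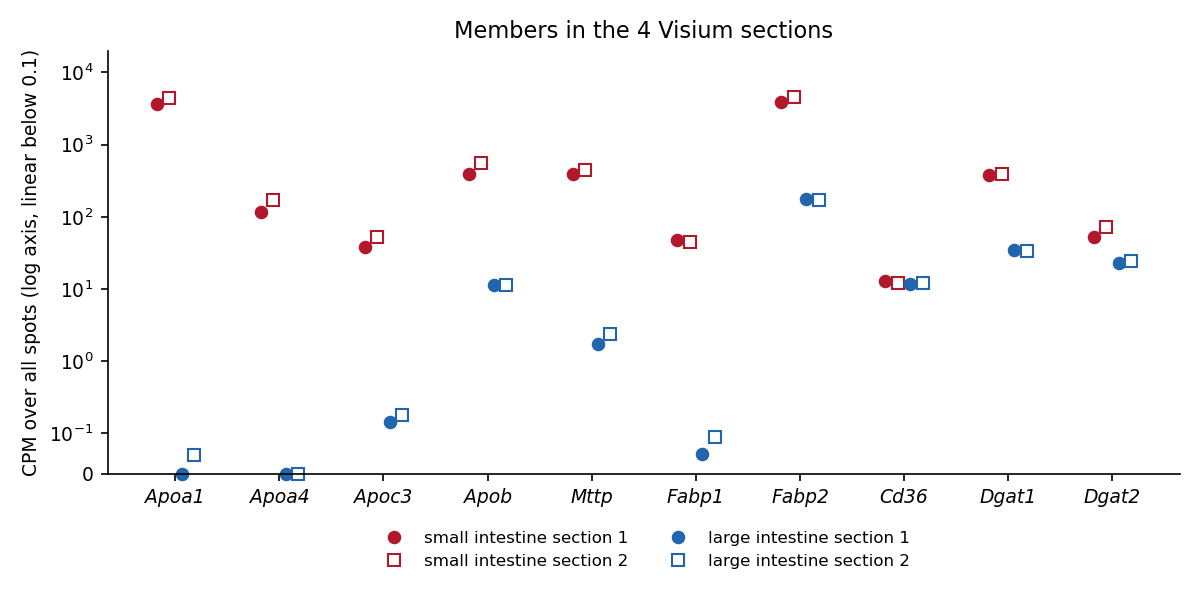
Level of each of the 10 genes in CPM on a log axis in the 2 Visium sections of small intestine and the 2 of large intestine, 1 point a section, with 0 drawn at the foot of the axis as its label states. For every gene the small intestinal points lie above the large intestinal points, but for Cd36 the gap is slight, with all 4 sections between 11.8 and 12.8 CPM.

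Of 40 further genes of fat handling that could be tested, 19 were higher in the small intestinal sections by the same rule, against 15.1% of all genes, and 8 were lower, against 13.4%. Their median log2 ratio was 0.85. By role, 6 of 6 genes of resynthesis were higher (a list that also holds the lipase Mgll), while 3 of 6 uptake genes were higher and 2 lower, and 3 of 7 assembly and export genes were higher and 1 lower. Of 4 other apolipoproteins 1 was higher and 2 were lower, and none of the 3 oxidation genes was higher, counts too small to set against those shares. Among the largest differences, Npc1l1, the cholesterol importer of the brush border, was at 383 and 494 CPM against 1 and 2 UMIs. Mogat2, which adds fatty acid to monoglyceride ahead of Dgat1, was at 164 and 211 CPM against 1.04 and 1.16 CPM, a log2 ratio of 7.41. Pla2g12b, a protein of lipoprotein assembly, had a log2 ratio of 4.90. In the other direction, Pparg, a lipid-sensing nuclear receptor, had a log2 ratio of -2.42 and Acsl3, an acyl-CoA synthetase, of -2.05.

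To place the genes along the villus, the spots of each small intestinal section were ordered by villus-tip genes (Ada, Nt5e, Slc28a2, Krt20, Klf4 and Pmp22, none of them a member) and split into 5 bins of equal size. In the highest bin, 8 of the 10 genes were higher by 2-fold or more than in all other spots of both sections, where 4.11% of all genes were. Cd36 was the only member lower by 2-fold or more, as were 35.1% of all genes. Dgat1 met neither rule. The median log2 ratios in the 2 sections were 1.81 and 1.66 for the members against -0.67 and -0.78 for all genes.

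Apoa4 was concentrated in the highest bin. From the lowest bin to the highest it was at 18.5, 28.9, 36.9, 49.7 and 351 CPM in section 1. In section 2 it was at 30.3, 47.9, 60.3, 67.7 and 485 CPM. Its last step was 7.07-fold and 7.17-fold, and it was 10.2 and 9.30 times as high in the tip bin as in all other spots (log2 ratios 3.36, interval 3.23 to 3.49, and 3.22, interval 3.12 to 3.31).

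Apoa1 and Fabp2 made their largest steps into the upper 2 bins. Apoa1 was at 429.9, 768, 1346, 4015 and 9197 CPM over the bins of section 1 and at 669.9, 1192, 1997, 4947 and 10182 CPM over those of section 2. Fabp2 went from 335, 527 and 854 CPM in the lower bins of section 1 to 3728 and 10548 CPM, and from 489, 810.4 and 1324 CPM to 5034 and 10933 CPM in section 2. Their tip-over-rest log2 ratios were 2.37 and 2.08 for Apoa1 and 2.81 and 2.33 for Fabp2.

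Mttp, Fabp1 and Dgat1 reached most of their level below the tip. Mttp was at 58.7, 106, 296, 581 and 716 CPM in section 1 and at 72.7, 132, 323, 655 and 805 CPM in section 2. Its final step was 1.23-fold in each section. Fabp1 was at 8.26, 17.3, 43.1, 65.7 and 85.6 CPM in section 1 and at 10.98, 16.2, 32.2, 55.1 and 85.3 CPM in section 2. Dgat1 was highest in the bin below the tip, at 554 CPM against 502 CPM at the tip of section 1 and 573 against 519 CPM in section 2. The log2 ratio of its last step was -0.14 in both sections, with intervals of -0.22 to -0.07 and -0.20 to -0.08.

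Apob, Apoc3 and Dgat2 were higher in each bin than in the bin below, in both sections, as were all other members except Dgat1 and Cd36. Apob was at 50.4, 83.3, 192, 480.0 and 910.1 CPM in section 1 and at 74.2 to 1243 CPM from the lowest to the highest bin of section 2. Apoc3 was at 4.78 CPM in the lowest and 88.6 CPM in the highest bin of section 1, and at 9.06 and 111 CPM in section 2. Dgat2 was at 11.1 and 104 CPM in section 1 and at 18.5 and 136 CPM in section 2. So Dgat2, unlike Dgat1, was at its highest in the tip bin of both sections.

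**Figure D2:**
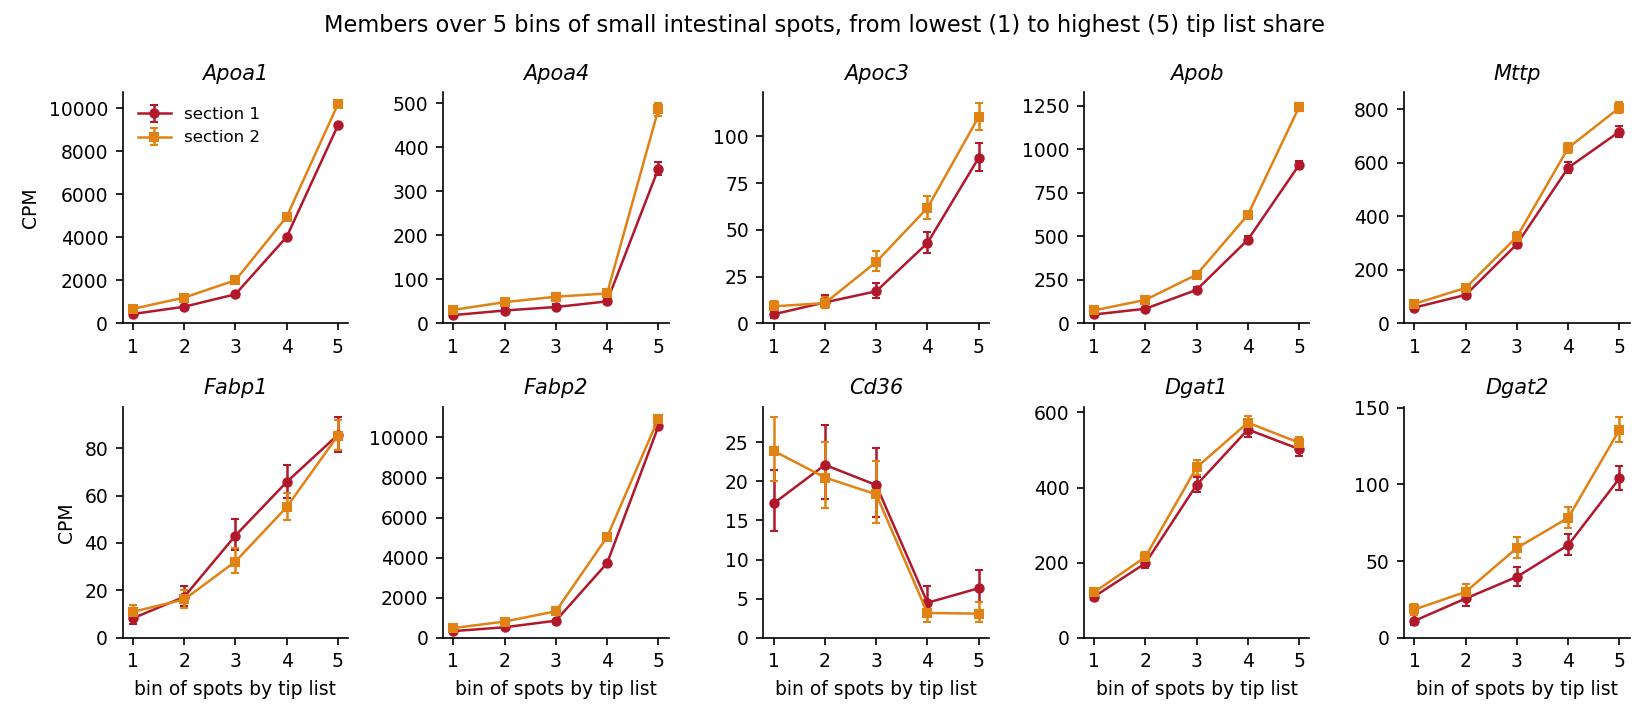
Level of each gene in CPM, 1 panel a gene with its own linear axis from 0, over the 5 bins of spots ordered from lowest to highest by the villus-tip genes, with 1 line for each small intestinal section and vertical bars for 95% counting intervals. Apoa4 makes its largest step into the last bin, Dgat1 is flat or lower there, and Cd36 runs the other way.

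The bins also differed in the tissue they covered. In section 1 the muscle list (Myh11, Acta2, Actg2 and Des) was at 12774 CPM in the lowest and 1117 CPM in the highest bin, and the epithelial list at 5666 and 13974 CPM. All genes of both lists were detected in these bins. Median depth was 9445 UMIs a spot in the lowest and 14087 in the highest bin. Against only those other spots whose muscle list share was under the section's median, 6 of the 10 genes were 2-fold or more higher at the tip, with the mean log2 ratio of the sections at 0.85 for Mttp and 0.92 for Fabp1. Counted per UMI of the epithelial list, 5 of the 10 genes were. The share of all genes was not computed for either comparison, so these 2 counts cannot be set against it. In section 1, 131 spots lay near the lower edge of the tip bin, and 191 in section 2.

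Cd36 followed another course from the other members. It was at 17.2, 22.1, 19.5, 4.48 and 6.34 CPM over the bins of section 1 and at 23.9, 20.5, 18.3, 3.17 and 3.09 CPM over those of section 2. Its tip-over-rest log2 ratios were -1.24 (interval -1.76 to -0.76, 40 UMIs at the tip) and -2.32 (interval -2.97 to -1.74, 25 UMIs). Against the bin just below alone the ratios were 0.50 and -0.04, with intervals that held 0. A cluster of 22 spots led by the fat-cell genes Orm3, Lep, Car3, Plin1 and Cfd held 20.6% of the Cd36 UMIs of section 1 and 11.2% of those of section 2, with 0.729% and 0.224% of all UMIs. Cd36 was at 361 and 607 CPM in these spots and at 10.2 and 10.8 CPM elsewhere. Without them the bins were at 17.2, 18.4, 12.4, 3.01 and 4.64 CPM in section 1, with both upper bins below the 3 lower ones. Against the other spots of low muscle list share, however, the mean log2 ratio of Cd36 over the sections was -0.02, so the lower level at the tip was not seen in that comparison.

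The genes whose profiles were most alike over the 20 bins of the 4 sections were found by Pearson's r of log2(CPM + 1) among 11421 genes, as a description only, since bins share sections and depth. For Apoa4 they were Fgf15 (0.988), Slc6a19 (0.986), Aqp7 and Apoa1 (0.985 each). For Fabp1 they were Naaladl1 (0.998), U90926 (0.997), Mttp (0.997) and Cst6 (0.995). For Cd36 they were Nnmt (0.959), C3 (0.9503), Dcn (0.949), Ccdc80 (0.947) and Maob (0.943).

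Of the further genes of fat handling, 13 of 40 were higher at the tip in both sections, where 4.11% of all genes were, and 3 of 40 were lower, where 35.1% of all genes were, with median log2 ratios of 0.87 and 0.83. Creb3l3, a transcription factor anchored in the endoplasmic reticulum that governs lipid genes, was at 127 CPM in the tip bin and 13.9 CPM in the other spots of section 1 and at 200.4 and 25.7 CPM in section 2. Lpin2, which makes diglyceride, had log2 ratios of 2.32 and 2.07, and Npc1l1 of 1.78 and 1.59. Among the lower genes were Mgll, a monoglyceride lipase, at -1.86 and -2.11, and Cpt1a, which admits fatty acids to mitochondrial oxidation, at -1.31 and -1.31.

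In the large intestinal sections the spots were ordered by surface colonocyte genes (Aqp8, Car4, Slc26a3 and Car1), and 6 members had enough UMIs, Apoa1, Apoa4, Apoc3 and Fabp1 being too low. Apob and Dgat2 were higher in the highest bin by 2-fold or more in both sections, which held for 5.16% of all genes, and Cd36 was lower, as were 26.2% of all genes. Apob was at 1.18 CPM in the lowest and 37.1 CPM in the highest bin of section 1, and at 0.898 and 33.5 CPM in section 2. Its surface-over-rest log2 ratios were 2.82 and 2.58. Dgat2 was at 12.0 and 49.2 CPM, and at 12.9 and 48.0 CPM, in the same bins. Fabp2 was at 119.6 and 221 CPM in section 1 and at 106 and 241 CPM in section 2, under 2-fold against all other spots. The surface list was at 167 and 8485 CPM, and the epithelial list at 8319 and 16142 CPM, in the lowest and highest bins of section 1, and their part was not tested. Of the further genes, 9 of 38 were higher, among them Creb3l3 with log2 ratios of 3.27 and 3.30, and 1 was lower.

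Among 15 named classes of at least 20 cells in the small intestinal cell library, 9 of the 10 genes had their highest level in an enterocyte class. That was so for 9.11% of all genes tested. The 2 enterocyte classes, named from marker genes that are not members, were an enterocyte-like class of 214 cells and an ileal enterocyte-like class of 174 cells named by Fabp6 and Slc10a2, genes of bile acid uptake, and by Slc51a and Slc51b, which export bile acids. Of its cells, 55 fell into the 2 subsets of enterocytes in which the ileal list was high, and 119 into the other subsets, among them 53 in subset 4, led by cell division genes, and 44 in subset 0, led mostly by Paneth cell genes. Another 19 of its cells were in subset 2, the subset with the highest Fabp1 level. All 10 genes were higher in the first of these classes, as were 40.8% of all genes tested, and the gap was widest for Apoa4. The median log2 ratio was 1.71 for the members and -0.06 for all genes.

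Apoa4 was at 489 CPM in enterocyte-like and 27.4 CPM in ileal enterocyte-like cells, a log2 ratio of 4.15 (interval 3.93 to 4.39). Fabp1 was at 6926 and 979 CPM, a log2 ratio of 2.82 (2.78 to 2.86). Apoc3 had a log2 ratio of 2.49, Apoa1 of 2.34 and Fabp2 of 2.15. These are the coat apolipoproteins and the binding proteins. The assembly pair and the synthases differed by less, with log2 ratios of 0.95 for Apob, 0.89 for Mttp, 0.89 for Dgat2 and 0.39 (0.32 to 0.47) for Dgat1. Median depth was nearly equal in the 2 classes, at 33318.5 and 32728.5 UMIs a cell.

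**Figure D3:**
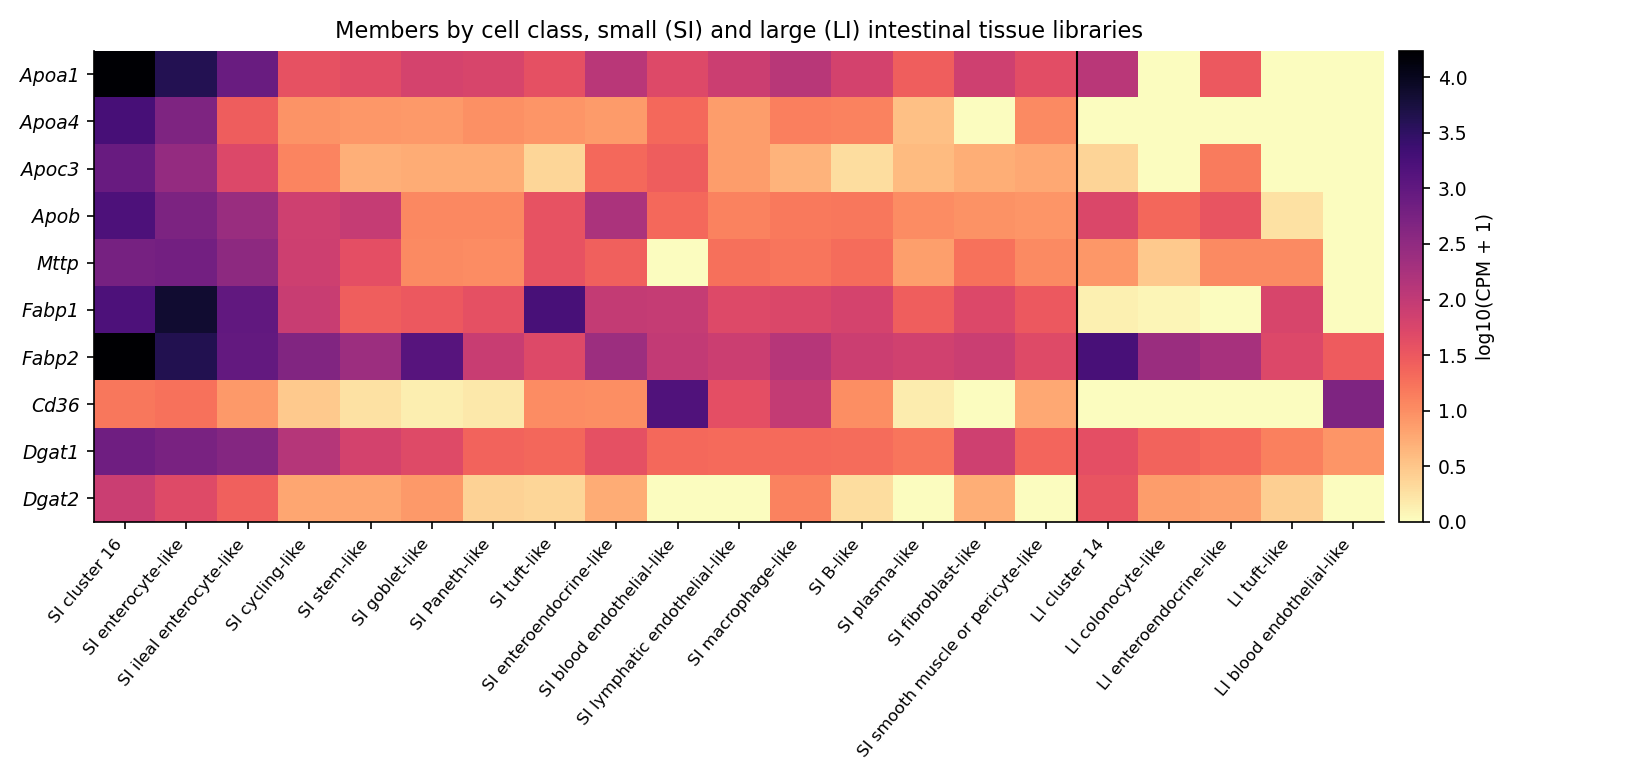
Level of each gene, as log10(CPM + 1) by colour, in cell classes of the small intestinal cell library (left of the line) and in 5 clusters or classes of the large intestinal library (right of it), with genes as rows. Cluster 16 or the enterocyte-like class is highest for every gene except Cd36, while ileal enterocyte-like cells lie below tuft-like cells for Fabp1 and below goblet-like cells for Fabp2. Cd36 is highest in blood endothelial-like cells of both tissues.

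A cluster of 106 cells, cluster 16, was left unnamed by the naming rule and had higher levels of 7 members than any of the other clusters, as it had of 4.89% of all genes tested. Clca4a, Cubn, Plb1, Fgf15 and Tmigd1 led it, its tip list was at 2564 CPM and its ileal list (Fabp6, Slc10a2, Slc51a and Slc51b) at 23707 CPM. Apoa1 was at 16361 CPM there (interval 16174 to 16551), Apoa4 at 1879 CPM, Apob at 1616 CPM, Apoc3 at 846 CPM and Fabp2 at 17285 CPM. Fabp1 was at 1621 CPM and Mttp at 592 CPM, both below the enterocyte-like class, where Mttp was at 630.0 CPM. Counted over 21 clusters, Apoa1, Apoa4, Apob, Apoc3, Fabp2, Dgat1 and Dgat2 were highest in cluster 16, Fabp1 and Mttp in the enterocyte-like cluster, and Cd36 in the blood endothelial-like cluster. So by single clusters only 2 of the 10 genes had their highest level in a named enterocyte cluster.

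When the 388 cells of the 2 enterocyte classes were clustered again without members or pathway genes, 6 subsets resulted. Subset 2, with 89 cells led by Slc5a12, Leap2 and Gdpd2, was highest for every one of the 10 genes, as it was for 13.4% of all genes tested. Fabp1 was at 11596 CPM in subset 2, at 4297 CPM in subset 1, 2879 CPM in subset 0, 1052 CPM in subset 4, 357 CPM in subset 3 and 20.3 CPM (interval 12.4 to 31.4) in subset 5. Apoa4 was at 878, 298, 93.5, 39.8, 14.8 and 11.2 CPM in the same order. Both genes thus fell into the same order of subsets, with Fabp1 spanning the wider range.

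Apoa1 did not keep that order. It was at 7871 CPM in subset 2, 2133 CPM in subset 1, 1182 CPM in subset 0, 462 CPM in subset 4, 903 CPM in subset 3 and 372 CPM in subset 5. Fabp2 was at 6939 CPM in subset 2 and 396 CPM in subset 5. Dgat1 had the narrowest range, from 345 CPM in subset 4 to 664 CPM in subset 2.

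Subset 1 was led by Pdx1 and Akp3. Subset 0, with 85 cells, was led mostly by Paneth cell genes such as Defa34, Defa23 and Itln1, and its Paneth markers were at 5022 CPM, against 1759 to 2140 CPM in the other subsets. The part of these Paneth cell transcripts in its levels was not tested. Subset 4, with 97 cells, was led by the cell division genes Cenpe and Cdc20. Subset 5, with 33 cells, was led by Hoxb9 and Fabp6, and subset 3, with 22 cells, by Slc10a2 and Fut2. The ileal list was at 29022 CPM in subset 5 and 7471 CPM in subset 3, and between 457 and 813 CPM in the other 4. The proximal list (Gata4, Lct, Slc40a1 and Cybrd1) was at 235 CPM in subset 2, 137 CPM in subset 1 and between 40.1 and 86.1 CPM elsewhere. Fabp1 and Apoa4 were thus lowest in the subsets where the ileal list was highest, while cluster 16 had both a high ileal list and high Apoa4. In the small intestinal sections the ileal list was at 8213 and 7905 CPM and the proximal list at 46.9 and 42.1 CPM.

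**Figure D4:**
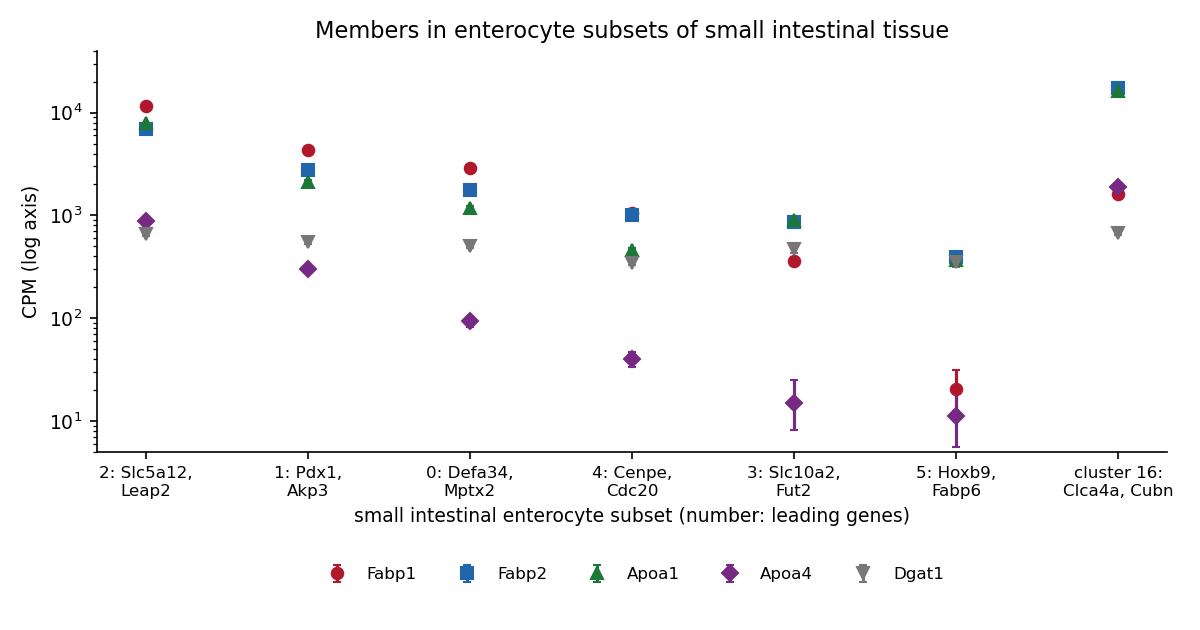
Levels of Fabp1, Fabp2, Apoa1, Apoa4 and Dgat1 in CPM on a log axis in the 6 enterocyte subsets and in cluster 16 of the small intestinal cell library, with 95% counting intervals. Subset 2 is the highest of the 6 subsets for each gene, and over them Fabp1 spans from 20.3 to 11596 CPM while Dgat1 spans from 345 to 664 CPM.

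Some members were also found outside enterocytes. Fabp1 was at 1774 CPM in 99 small intestinal tuft-like cells, chemosensory cells that trigger type 2 immunity, where Apoa1 was at 38.1 CPM and Fabp2 at 49.5 CPM. With every cell thinned to 2000 UMIs, 54.5% of tuft-like cells had a Fabp1 UMI (exact Clopper-Pearson interval 44.2 to 64.6), against 11.8% (8.19 to 16.2) of B-like cells, which should lack it. Unthinned, the shares were 80.8% and 16.7%, at median depths of 16150 and 2800 UMIs. In 82 tuft-like cells of the large intestine Fabp1 was at 57.6 CPM, and 13.2% of the thinned cells had a UMI, against 0 of 108 B-like cells, a share of up to 3.36%.

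Fabp2 was at 1258 CPM in 225 small intestinal goblet-like cells, the mucus-secreting cells, and at 133 CPM in 307 of the large intestine. Of the thinned small intestinal goblet-like cells 84.7% had a Fabp2 UMI, against 15.1% of B-like cells. Unthinned, these were 98.2% and 22.0%, at median depths of 25451 and 2800 UMIs. Thinned, Fabp2 was also found in 53.2% of cycling-like and 32.0% of stem-like small intestinal cells. In the large intestine it was in 38.9% of thinned stem-like and 9.26% of thinned B-like cells. Apoa1 at 62.0 CPM and Fabp1 at 31.1 CPM in goblet-like cells were at or below the 63.9 and 61.0 CPM of B-like cells. Apob was at 166 CPM in 32 enteroendocrine-like cells, the hormone-secreting cells, and 26.7% of the thinned cells had an Apob UMI against 2.94% of B-like cells (unthinned 71.9% and 3.67%, median depths 12891 and 2800 UMIs). An Apoa1 UMI was in 43.3% of the thinned enteroendocrine-like cells, against 11.4% of B-like cells.

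Cd36 had its highest level, 1479.6 CPM (interval 1288 to 1691), in 39 small intestinal cells called blood endothelial-like. In 87 such cells of the large intestine it was at 480.2 CPM (414 to 553). After thinning, 73.3% and 44.4% of these cells had a Cd36 UMI, against 1.10% of small intestinal B-like cells and 0 of 108 in the large intestine; unthinned, the shares were 76.9%, 54.0%, 1.67% and 0%. Median depths were 3183 and 3833 UMIs in the endothelial cells and 2800 and 2648.5 UMIs in the B-like cells. Macrophage-like cells were next in both tissues, at 92.4 and 94.3 CPM, and lymphatic endothelial-like cells were at 39.8 and 7.08 CPM. Enterocyte-like cells were at 16.7 CPM and ileal enterocyte-like cells at 6.90 CPM, close to the 8.85 CPM of B-like cells (interval 4.05 to 16.8).

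Pooled, the enterocyte classes of the small intestine exceeded colonocyte-like cells of the large intestine by 2-fold or more for all 10 genes, as did 10.8% of all genes. The median log2 ratio was 6.28 for the members and -0.09 for all genes. In 224 colonocyte-like cells Apoa1, Apoa4, Apoc3 and Cd36 had 0 UMIs, so with a floor of 3 UMIs they were at least 5213-fold, 560-fold, 354-fold and 24.4-fold higher in enterocytes. These bounds moved with the clustering: the log2 ratio of Apoa1, 12.35 with that floor, was 5.35 at resolution 0.5 and 6.20 with an unnamed absorptive cluster of each tissue added, an alternative chosen after seeing the data. With doublets kept the log2 ratio was 7.62 for Apoa4, 7.02 for Apoc3 and 3.11 for Cd36, against 9.13, 8.47 and 4.61 with that floor, so the bounds hold for these cells as clustered and filtered here only. Cd36 was at 12.3 CPM in those enterocytes, where its share of cells with a UMI exceeded that of goblet-like or stem-like cells, as given above. Fabp1 was at 4268 CPM in enterocytes and had 1 UMI in the colonocyte-like cells.

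Mttp was at 499.9 and 2.02 CPM in enterocytes and colonocyte-like cells, a log2 ratio of 7.95 (interval 7.14 to 8.90). Its colonocyte-like level came from 12 UMIs and did not exceed the 2.73 CPM (1 UMI) of large intestinal B-like cells. Dgat1 was at 494 and 23.1 CPM, a ratio of 4.42, and Apob at 393 and 21.4 CPM, a ratio with an interval of 3.95 to 4.47. Fabp2 was at 2761 and 241 CPM, a ratio of 3.52, and Dgat2 at 36.8 and 6.40 CPM, a ratio of 2.52 on the log2 scale. In large intestinal B-like cells these were at 8.19 CPM for Dgat1, 0 CPM for Apob, 41.0 CPM for Fabp2 and 2.73 CPM for Dgat2. The call for Dgat2 ended at resolution 0.5, with a log2 ratio of 0.49, and under the loose cell filter, with 0.79. Fabp2 moved as well, to a log2 ratio of 1.72 at resolution 0.5 and of 2.30 under the loose cell filter, the former being its lowest over the 10 settings run. The lowest log2 ratios over these settings were 6.24 for Mttp and 3.54 for Dgat1, both at resolution 0.5, and 3.06 for Apob, with doublets kept.

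A second absorptive cluster of the large intestine, cluster 14, could not be named by the rule. Its 230 cells were led by genes such as Alpi, Slc10a2, Slc51a and Cyp2c55, and its surface list was at 19919 CPM against 1312 CPM in the colonocyte-like cells. Fabp2 was at 1803 CPM there, Apoa1 at 119 CPM (interval 110 to 128), Apob at 52.4 CPM and Dgat2 at 34.0 CPM. The pooled small intestinal enterocytes had Fabp2 at 2761 CPM and Dgat2 at 36.8 CPM. So against cluster 14, unlike the colonocyte-like cells, these 2 genes were under 2-fold higher. Apoa4 and Cd36 had 0 UMIs in it, with upper bounds of 0.642 CPM. Of the further genes of fat handling, 23 of 36 were higher in small intestinal enterocytes than in colonocyte-like cells, against 10.8% of all genes, with Mogat2 at a log2 ratio of 8.61. Creb3l3 had 1 UMI and Npc1l1 0 UMIs in colonocyte-like cells.

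Over all kept organoid cells, none of the 10 genes differed by 2-fold or more between cocultured and control organoids, where 5.36% of all genes did. Fabp2 was at 354 CPM in control and 650.2 CPM in cocultured organoids, a log2 ratio of 0.88 (interval 0.85 to 0.90), and Fabp1 at 2791 and 4788 CPM, a ratio of 0.78. Apob was at 315 and 192 CPM, a ratio of -0.72, and Apoa4 at 1543 and 1116 CPM, a ratio of -0.47. The other 6 genes had log2 ratios from -0.40 for Dgat2 to 0.54 for Dgat1. The members' median was 0.21 and that of all genes -0.10. Enterocyte-like cells made up 9.48% of control and 17.5% of cocultured cells (51 and 180 cells), and the part of that share in these levels was not tested. Of 39 further genes 2 differed, Lpin2 and Pparg, both lower in coculture with log2 ratios of -1.13 and -1.01.

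Within enterocyte-like cells of the organoids, 3 of the 10 genes were lower in coculture by 2-fold or more, against 1.58% of all genes, and none was higher, against 2.05%. Apob was at 1723 CPM in control and 686 CPM in cocultured cells, a log2 ratio of -1.33 (interval -1.37 to -1.28). Apoa4 was at 12001 and 5337 CPM, a ratio of -1.17 (-1.19 to -1.15). Cd36 was at 38.2 and 17.4 CPM, a ratio of -1.14 (-1.44 to -0.84). The median log2 ratio was -0.50 for the members and 0.00 for all genes.

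The other members of these cells lay within 2-fold. Fabp1 was at 17220.4 and 17317 CPM, with a log2 ratio of 0.01 and an interval that held 0. Fabp2 was at 0.16 and Dgat1 at 0.15, while Apoa1 was at -0.37, Apoc3 at -0.49, Mttp at -0.51 and Dgat2 at -0.72. The 2 clusters that make up the class gave ratios of opposite sign for some of these genes. In cluster 5, Apoa1 was at 0.17, Apoc3 at 0.25 and Fabp1 at -0.36, and in cluster 6 they were at -0.33, -0.19 and 0.20.

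**Figure D5:**
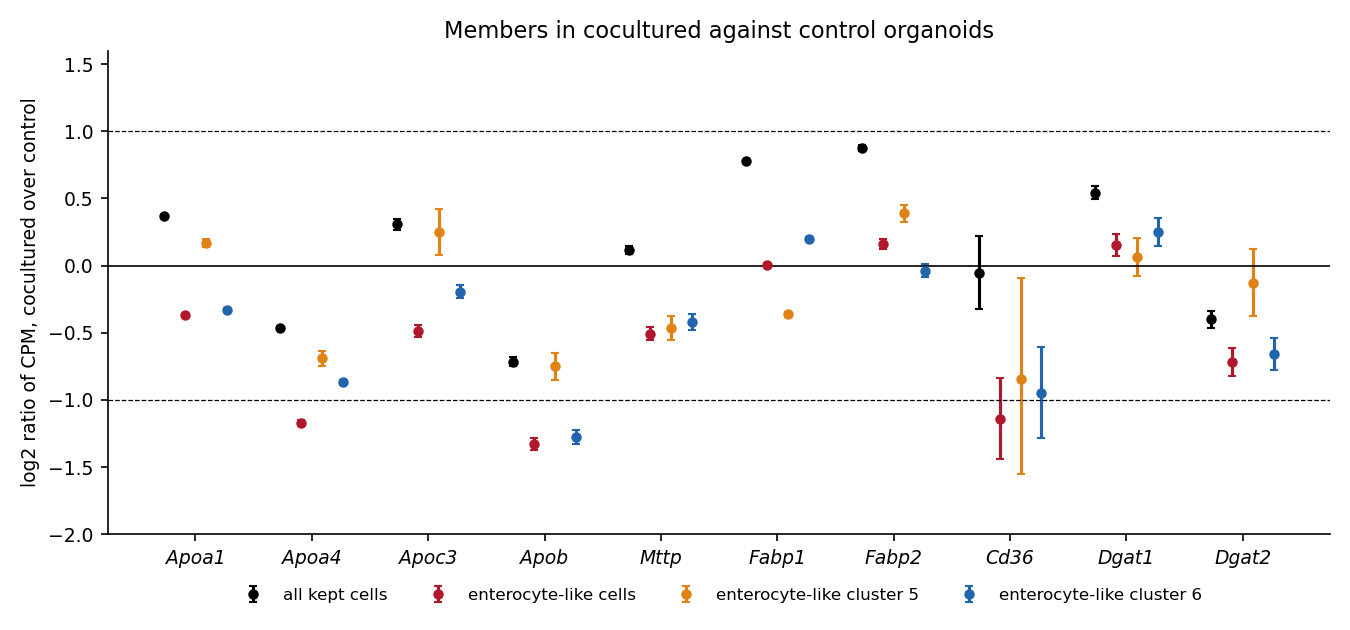
Log2 ratio of cocultured over control organoids for each gene, over all kept cells, within enterocyte-like cells and within clusters 5 and 6 of them, with 95% counting intervals and dashed lines at 2-fold. Over all cells no gene passes 2-fold, and within enterocyte-like cells Apob, Apoa4 and Cd36 lie below -1.

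The control value rested on few cells. In 51 control enterocyte-like cells, 9 cells held 50% of the Apoa4 UMIs, and the cell with the most held 13.9% of the Apob UMIs or 24.1% of the Cd36 UMIs. Over 11 settings of filtering, clustering and scaling, Apoa4 ranged from -1.17 to -0.90 and was past 2-fold in 7 of them. Apob ranged from -1.46 to -0.78, past 2-fold in 10, and Cd36 from -1.30 to -0.82, past 2-fold in 9. The enterocyte-like cells were made of 2 clusters. In cluster 5, with 15 control and 79 cocultured cells, the log2 ratios were -0.75 for Apob, -0.69 for Apoa4 and -0.85 for Cd36. In cluster 6, with 36 and 101 cells, they were -1.27, -0.87 and -0.95. So Apoa4 and Cd36 passed 2-fold in neither cluster, and Apob passed it in cluster 6 only. The part of the mix of the 2 clusters in the pooled ratios was not tested.

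The tip list moved with these values. It was at 1719.7 CPM in control and 375 CPM in cocultured enterocyte-like cells, with 1 of its 6 genes, Pmp22, at 0 in the control. In cluster 6 it was at 2398 and 566 CPM. The proximal list was at 306 and 216 CPM. Their part in the results was not tested. Of 37 further genes, 0 were higher by 2-fold or more, against 2.05% of all genes, and 2 were lower, against 1.58%, counts too small to read a difference from. One of the lower genes was Scarb1, a receptor for lipoproteins, at 26.9 and 8.11 CPM (log2 ratio -1.73).

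Fabp1 and Fabp2 were also measured in the cycling-like, stem-like and Paneth-like classes. In cycling-like cells Fabp1 was at 341 CPM in control and 908 CPM in coculture, a log2 ratio of 1.41 (interval 1.36 to 1.47), and Fabp2 at 130 and 239 CPM, a ratio of 0.88. In stem-like cells Fabp1 was at 436 and 533 CPM and Fabp2 at 118 and 199.5 CPM. In cycling-like and stem-like cells Apoa1, Apoa4 and Apoc3 were each under 30 CPM in both conditions, below 1% of their level in enterocyte-like cells of the same library. The part of free RNA in these low levels was not tested. In cycling-like cells Apoc3 was at 1.95 and 4.84 CPM, from 21 and 132 UMIs, a log2 ratio of 1.32. In the Paneth-like cells of the organoids, which guard the crypt base, Fabp2 was at 97.5 and 215 CPM, a log2 ratio of 1.14, and Fabp1 had a ratio of 0.38, while Apob was at 31.1 and 14.8 CPM, a ratio of -1.07 (interval -1.52 to -0.62). In Paneth-like cells Apoa1 was at 38.4 and 54.5 CPM, Apoa4 at 23.6 and 31.4 CPM, and Apoc3 at 2.31 and 6.15 CPM, the last from 8 and 29 UMIs. Fabp1 was lower in coculture in the unnamed cluster 1, with a log2 ratio of -0.17 (interval -0.23 to -0.11), and in the unnamed cluster 8 the ratio was -0.14 with an interval that held 0. In the other unnamed clusters Fabp1 was higher in coculture, with intervals above 0. The log2 ratios were 1.17 in cluster 3, 0.19 in cluster 4, 1.14 in cluster 7, 1.26 in cluster 11 and 0.66 in cluster 13.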

How the data were processed

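UMI counts per gene and barcode were used as deposited in 8 matrices, with no normalization; per the file headers, Cell Ranger 6.0.1 made the single-cell counts and Space Ranger 1.2.1 the Visium counts. Build mm10 is named in the submitters' processing notes. The members and gene lists were chosen with earlier results of these data known. All 10 members are named, and of 41 further pathway genes at most the 3 highest and 3 lowest ratios per comparison, except genes that are not reported here; other genes lead a cluster or spot group or belong to a list, and the fat-cell genes were looked at after their spots were seen. Of 32285 gene IDs, 32158 matched a table of mouse names, and 2 added GFP features were left out.

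The cell filter kept barcodes with 500 or more genes and no more than 20% mitochondrial UMIs; the spot filter kept those with 500 or more UMIs. Doublets were removed by score at 0.8% per 1000 cells. Cells were clustered with scanpy 1.11.5 and leidenalg 0.10.2 (2000 variable genes, 30 components, 15 neighbours, resolution 1, subsets at 0.5) without members or pathway genes, and named by 26 marker lists, needing 3 detected markers. Each marker had to be in 10% or more of the cells and 2-fold or more above the other cells. A name was dropped where another list had more of the 10 leading genes. It was also dropped at low depth with no leading gene from its list. Counts were summed per class. Intervals are exact Poisson, binomial (Clopper-Pearson) or conditional ratio intervals at 95% (scipy 1.17.1). PCR and capture error are not covered. The ratio floor was 3 UMIs. The ratio step was tested on simulated data. Alternative cell filters, resolutions, scalings, thresholds and reference bins were tried, and single sections were left out.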

Additional observations from a re-analysis of the deposited data

Results flagged for a closer look

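Some organoid clusters had a coculture-over-control log2 ratio of the opposite sign to that of the enterocyte-like cells. With 1 library per condition these differences were not tested. In cluster 7, an unnamed cluster of 80 control and 35 cocultured cells led by Cnfn and Dynap, Apoa4 was at 2927 CPM in control and 5372 CPM in coculture, a log2 ratio of 0.88 against -1.17 in enterocyte-like cells. Mttp was at 333 and 538 CPM in cluster 7, a ratio of 0.69 against -0.51.

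In cluster 11, an unnamed cluster of 33 control and 80 cocultured cells led by genes such as Mzf1, Cdc25b and Cdkn2d, Apoa4 was at 38.5 and 309 CPM, a log2 ratio of 3.01. Apob was at 71.3 and 108 CPM there, a ratio of 0.59 against -1.33 in enterocyte-like cells. Apoc3 had a ratio of 3.59 in cluster 11 (31 and 900 UMIs) and of 2.38 in cluster 13, against -0.49 in enterocyte-like cells, and Apoa1 one of 2.49 in cluster 11 against -0.37. Dgat2 had a ratio of 0.70 in cluster 11 and of 0.54 in cluster 9, a cycling-like cluster led by histone genes, against -0.72 in enterocyte-like cells.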

How the results depend on the processing

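The 5 counts of members were recomputed under 55 alternatives, of which 46 stayed within 1.5 times the main count. The count of members higher in the small intestinal sections was 8 or 9 throughout and 9 without either section. The count higher at the villus tip (8) stayed at 8 without either section but was 6 against spots of low muscle list share, 5 per UMI of the epithelial list, 4 at a 4-fold threshold and 3 against the fourth bin alone, where the log2 ratio of Cd36 averaged over the sections turned to 0.23. For the counts at the villus tip, the share over all genes was computed in the main setting only. The count highest in an enterocyte class (9) was 2 with every cluster on its own, since cluster 16 then counts separately. The count higher in enterocytes than in colonocyte-like cells (10) was 9 with the loose cell filter and at resolution 0.5, where Dgat2 was under 2-fold, and 10 otherwise. The count changed in organoids (0) was 1 with the strict cell filter, 1 with median-of-ratios scaling, 1 in cluster 6 only, 3 in enterocyte-like cells only and 3 at 1.5-fold. The comparison with the fourth bin, the single clusters and cluster 6 were chosen after seeing the data. Of 380 member ratios, 178 moved by less than the counting interval or the spread between sections, 201 by more, and 1, that of Cd36 at the tip, was 2-fold or more and changed sign. In all 17 changed sign, 16 of them under 2-fold in the main setting. The cause was not tested where none is given. No paired analysis was possible because each condition or tissue had 1 cell library and the sections of different tissues share only a number. Depth limits Cd36 at the tip, with 40 and 25 UMIs.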

Other observations

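In enteroendocrine-like cells of the large intestine (41 cells) Apob was at 34.9 CPM, from 18 UMIs, against 0 UMIs in B-like cells. In those of the organoids it was at 226 CPM in control (5 cells) and 546 CPM in coculture (22 cells), where all kept cells were at 315 and 192 CPM. The part of free RNA in these values was not tested. An unnamed cluster of the large intestine with 65 cells, cluster 27, whose markers came closest to fibroblasts, had Cd36 at 82.5 CPM. Cidec, a lipid droplet gene, was at 6.74 CPM in the lowest and 79.4 CPM in the highest villus-tip bin of section 1, and at 9.24 and 112 CPM in section 2. Adipoq, a fat-cell gene, was at 1.30 and 5.23 CPM, and at 1.92 and 1.61 CPM, in the same bins.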
